A study of Mus musculus with 8 samples.

Results

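The genes described here are 10 protein-coding genes of the blood-brain barrier, taken by symbol from the 32285 genes of the deposited count matrices. They are the glucose carrier Slc2a1, the amino acid carrier Slc7a5, the monocarboxylate carrier Slc16a1, the lipid carrier Mfsd2a, the organic anion carriers Slco1a4 and Slco1c1, the efflux pumps Abcb1a and Abcg2, and the tight junction genes Cldn5 and Ocln. All 10 were found, and the rule uses their symbols only, although the genes were chosen with earlier results of these data known. Nuclei came from the cerebral cortex of C57BL/6J mice at postnatal day 25, with the medial cortex cut away, and 1 library was made per mouse with the 10x Genomics 3' v3 chemistry, in which each captured RNA molecule is counted once by its unique molecular identifier (UMI). The series holds 4 wild type (WT) libraries and 4 libraries labelled heterozygous for Chd8 (Chd8+/-, written Chd8het), with 2 males and 2 females in each. Chd8 encodes a chromatin remodeller, and the comparison of the genotypes asks which cortical RNAs change with its dose. Per the labels the mice were pairs matched for litter and sex, but no label says which libraries form a pair, and the allele is not described. Libraries numbered 1 were single-indexed and those numbered 2 dual-indexed, in each sex of each genotype. No agent was given to any group.

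Brain capillaries are lined by endothelial cells whose tight junctions close the gaps between cells, so that solutes must cross through carriers in the cell membrane. Claudin-5 and occludin are membrane proteins of these junctions. Carriers bring in glucose, amino acids, lactate, lipids and hormones, while ATP-driven pumps return many drugs and toxins to the blood. Pericytes and astrocyte endfeet surround the vessel, and the leptomeninges form a further barrier between blood and cerebrospinal fluid.

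Nuclei were assigned to cell types by the number of detected marker genes, and none of the 10 genes is a marker. Of 77655 kept nuclei, 7450 to 10959 per library, 401 were endothelial, 25 to 81 per library. The other types were mural cells (282 nuclei; pericytes and smooth muscle), fibroblasts (784), astrocytes (4031), oligodendrocytes (3672), oligodendrocyte precursor cells (OPC; 2249), microglia (3423), excitatory neurons (37051) and inhibitory neurons (3621). Other kept nuclei, such as those that passed no gate or more than 1, belong to none of these 9 types. Of 502 nuclei that passed the endothelial gate, 101 passed another too and were left out. The 9 types together held 71.5% (Abcb1a) to 82.2% (Abcg2) of the UMIs of each gene over all kept nuclei. All 18 endothelial markers had UMIs in the endothelial sums, and together they made 11060 to 18250 CPM there (CPM, counts per 1000000 UMIs of the sum), against 604 to 1089 CPM in mural sums and 242 to 520 CPM in fibroblast sums. Endothelial sums also held markers of other types: 417 to 1222 CPM of 16 mural markers, 661 to 1121 CPM of 16 oligodendrocyte markers and 1211 to 2205 CPM of 13 excitatory markers. In the sums of their own types these lists made 7631 to 10270, 20200 to 22430 and 4558 to 5398 CPM in turn. The part of these other markers in the results below was not tested. The endothelial sums were shallow, 49546 to 176894 UMIs per library, so that 1 UMI was worth 5.65 to 20.2 CPM. Of the kept nuclei, 712 barcode sequences occurred in more than 1 library. Over all nuclei Chd8 stood at 79.0 ± 2.80 CPM in WT and 80.2 ± 6.41 CPM in Chd8het libraries (mean ± SD, n = 4 each; log2 change -0.01, SE 0.07, adjusted p = 1, edgeR quasi-likelihood test with Benjamini-Hochberg adjustment). Its RNA therefore did not mark the labelled genotype, and whether reads at the 3' end can show this allele is not known.

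The DNA before the start is shown for 4 of the genes on which the results below turn: Slco1a4 and Slco1c1, near neighbours whose levels part in astrocytes, Cldn5, a junction gene of brain endothelium, and Slc16a1, which had the smallest unadjusted p of the 10 between genotypes. RefSeq starts on GRCm38.p6 were matched for 9 of the 10 genes, all but Slc7a5. Each line gives the 250 bases before the start, read 5' to 3' on the gene's strand, and capitals mark a GC box (GGGCGG or its reverse complement). Slco1a4 (chr6:141856221-141856470, minus strand) and Slco1c1 (chr6:141524104-141524353, plus strand) are both on chromosome 6. Cldn5 is at chr16:18776597-18776846, plus strand and Slc16a1 at chr3:104638414-104638663, plus strand. No annotated exon lies in these 4 windows.
Slco1a4: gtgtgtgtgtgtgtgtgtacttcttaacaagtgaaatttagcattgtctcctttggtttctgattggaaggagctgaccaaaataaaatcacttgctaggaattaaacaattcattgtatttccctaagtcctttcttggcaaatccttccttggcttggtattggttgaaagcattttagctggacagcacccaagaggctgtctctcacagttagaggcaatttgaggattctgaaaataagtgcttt
Slco1c1: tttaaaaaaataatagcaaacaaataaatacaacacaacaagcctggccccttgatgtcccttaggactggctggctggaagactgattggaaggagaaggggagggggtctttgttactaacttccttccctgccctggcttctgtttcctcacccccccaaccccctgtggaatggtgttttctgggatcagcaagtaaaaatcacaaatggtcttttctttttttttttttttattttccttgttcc
Cldn5: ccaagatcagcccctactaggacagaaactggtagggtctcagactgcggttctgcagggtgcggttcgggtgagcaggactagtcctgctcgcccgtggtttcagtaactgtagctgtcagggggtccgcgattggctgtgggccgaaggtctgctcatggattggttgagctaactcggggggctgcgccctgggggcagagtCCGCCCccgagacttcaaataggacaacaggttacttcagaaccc
Slc16a1: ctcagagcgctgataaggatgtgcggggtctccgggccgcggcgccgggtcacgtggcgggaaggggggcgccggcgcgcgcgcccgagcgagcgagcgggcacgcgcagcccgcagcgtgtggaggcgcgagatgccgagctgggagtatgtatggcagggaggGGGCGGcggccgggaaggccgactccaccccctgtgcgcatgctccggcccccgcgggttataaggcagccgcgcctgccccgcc
Slco1a4 and Slco1c1 have 0 CpG dinucleotides in this window. Slc16a1 has 37 and Cldn5 12, against a median of 6 over 32851 RefSeq windows of the same length. The 3 motifs were searched on both strands, and no match overlapped a match of another motif: the GC box, the TCF/LEF core CTTTGA and the ETS core CCGGAA. The GC box is in 32.7% of all windows, CTTTGA in 13.8% and CCGGAA in 12.03%. Among the 4 windows only Cldn5 and Slc16a1 hold a GC box, starting 45 and 85 bases before the start. CTTTGA was found before Mfsd2a (1 match) and CCGGAA before Ocln (1 match). The RefSeq window of Abcb1a lies far upstream of the gene start given below and is not described. A match describes the letters and is not a measured site.

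All 10 genes were higher in endothelial nuclei than in each of the other 8 cell types. They are barrier genes chosen with earlier results of these data known, so the shares over all genes given below are a reference only. Each of the 80 comparisons passed at an adjusted p under 0.05 (edgeR quasi-likelihood test on UMI sums per library and type, library as a block, Benjamini-Hochberg over 13585 genes for each contrast), with a largest adjusted p of 3.2e-05. Over all genes tested, the share called higher in endothelial sums was 11.2% against mural, 13.7% against fibroblast, 17.8% against astrocyte, 19.6% against oligodendrocyte, 17.1% against OPC, 13.6% against microglia, 22.2% against excitatory and 21.5% against inhibitory sums. The median log2 difference of the 10 genes ran from 5.47 against astrocytes to 6.997 against inhibitory neurons, while the median of all genes tested lay between -0.32 and 0.12. In every comparison the lowest endothelial library stood above the highest library of the other type, which held for 3.41% of all genes against mural, 4.46% against fibroblast, 8.55% against astrocyte, 9.97% against oligodendrocyte, 7.96% against OPC, 5.44% against microglia, 13.2% against excitatory and 11.6% against inhibitory sums. The sizes of the differences depended on how nuclei were chosen. With nuclei of at least 1000 genes and at most 1% mitochondrial UMIs, 44 of the 80 differences were smaller by over 1.5 times and 0 were larger. With that filter the calls of Mfsd2a against OPC and astrocytes and of Slco1c1 against astrocytes were lost. The log2 difference of Mfsd2a from OPC then turned sign (-0.04). When each nucleus took the class of its highest mean marker level, all 10 differences from mural sums were smaller by over 1.5 times, with a median of 3.81 in place of 5.91 on the log2 scale, and all were still called. The smallest differences were those of Slco1c1 against astrocytes and of Mfsd2a against OPC and astrocytes. The scaling factors of the fit had a median of 1.37 in endothelial and 0.758 in excitatory sums, so fitted log2 differences from excitatory sums are smaller than plain ratios of CPM. Against mural sums, with a median factor of 1.315, the fitted differences are close to the plain ratios. All levels below are CPM of the plain sums, given as the mean ± SD of 8 libraries unless the values of single libraries are listed, and they are compared between cell types for 1 gene at a time. Gene positions are on GRCm38, from the GENCODE annotation. Other annotated genes overlap Slc2a1 (3 genes), Abcb1a (2), Slc16a1 (2) and Slc7a5 (1), and since the strand setting of the counting is not given, reads of overlapping genes cannot be told apart.

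**Figure D1:**
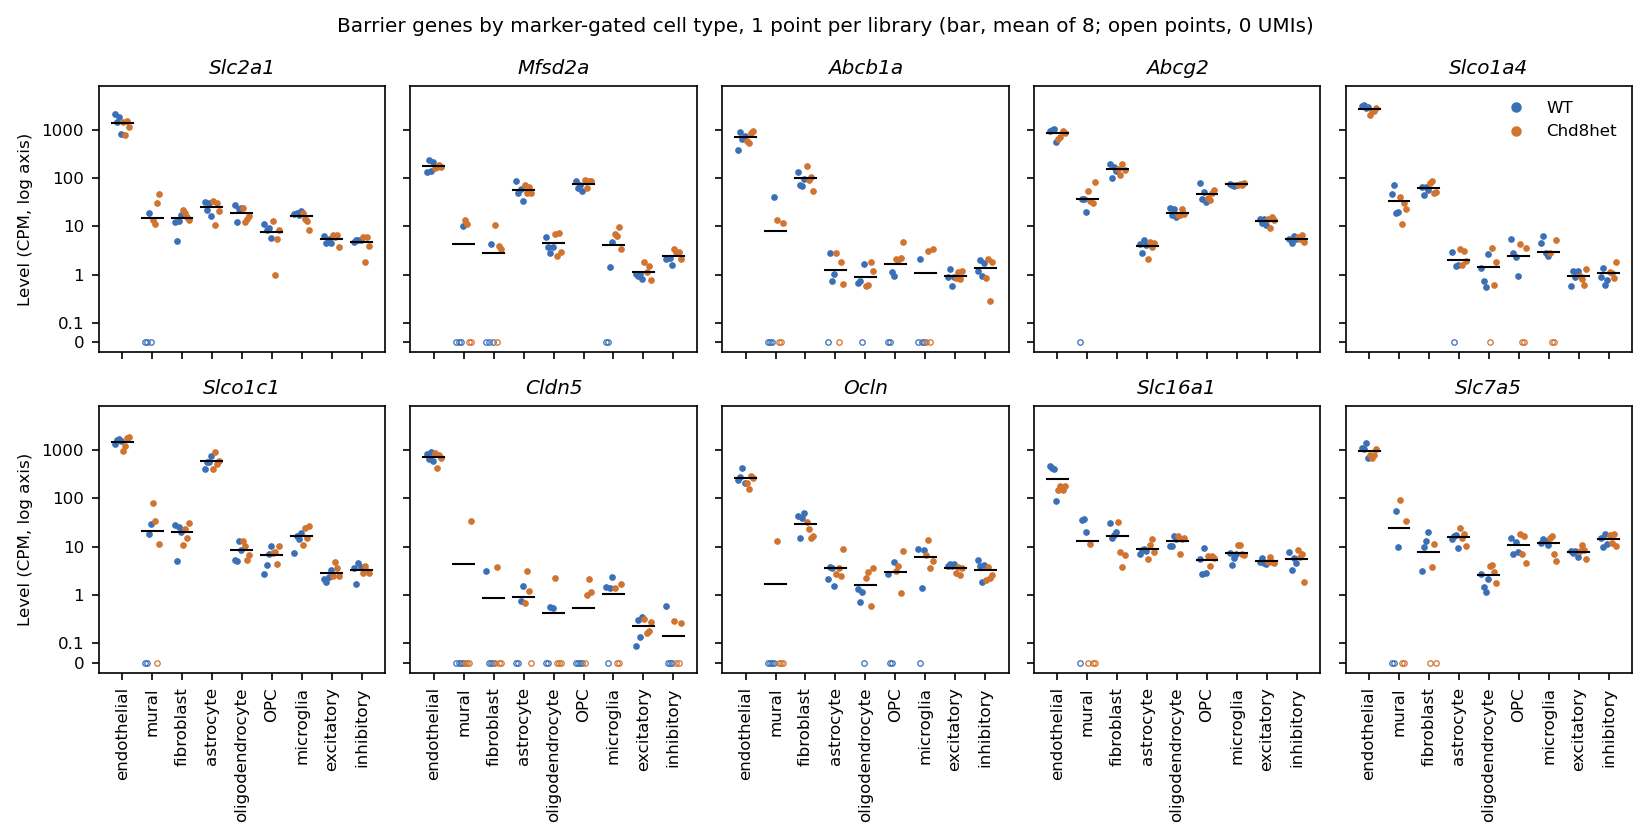
Level of each of the 10 genes (CPM, log axis) in the 9 cell types, with 1 point per library, blue for WT and orange for Chd8het, a bar at the mean of 8, and open points for libraries with 0 UMIs. Endothelial points lie above every other column in all 10 panels, with Slco1c1 in astrocytes and Mfsd2a in OPC and astrocytes closest to them.

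Slc2a1, on chromosome 4 from 119108711 to 119137983, encodes the facilitative glucose carrier GLUT1. Its endothelial level ran from a lowest library of 780.0 through a median of 1448 to a highest of 2065 CPM. The next levels were 24.6 ± 8.44 CPM in astrocytes, 19.3 ± 5.96 in oligodendrocytes, 16.2 ± 4.03 in microglia, 15.0 ± 16.6 in mural and 14.7 ± 5.01 in fibroblast nuclei, neighbours that lay within each other's spread. Neurons came last, at 5.46 ± 1.08 CPM in excitatory and 4.84 ± 1.38 CPM in inhibitory nuclei. The log2 difference from endothelial nuclei was 5.26 (SE 0.13) for astrocytes and 7.14 (SE 0.12) for excitatory neurons.

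Slc7a5, on chromosome 8 from 121881150 to 121907694, encodes the large neutral amino acid carrier LAT1. It stood at 944 ± 258 CPM in endothelial nuclei, with 672.0 in the lowest and 1413 in the highest library. Mural nuclei had 24.3 ± 34.7 CPM from 14 UMIs, astrocytes 15.98 ± 4.94 and inhibitory neurons 14.3 ± 3.73 CPM. Of the mural UMIs 7 came from Chd8het male 1 (93.4 CPM), and 4 of 8 mural sums had 0, so the place of mural nuclei in this order is uncertain. Oligodendrocytes had the lowest level, 2.57 ± 1.13 CPM, below the excitatory neurons at 7.87 ± 1.58 CPM.

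Slc16a1, on chromosome 3 from 104638668 to 104658462, encodes the lactate and ketone body carrier MCT1. Its endothelial level varied more between libraries than that of any other of the 10 genes relative to its mean, 258 ± 152 CPM, with a lowest library of 87.7, a median of 184 and a highest of 474 CPM. The other types lay between 5.07 ± 0.657 CPM in excitatory neurons and 16.8 ± 10.8 CPM in fibroblasts, and oligodendrocytes had 13.2 ± 3.55 CPM. With a stricter gate, which asks for at least 6 in place of 4 fibroblast markers and allows at most 3 excitatory markers, the fibroblast level was 4.53 ± 6.48 CPM (4 UMIs). Endothelial nuclei exceeded oligodendrocytes by 3.43 on the log2 scale (SE 0.23), the smallest of its 8 differences. Only 5.02% of all its UMIs over the kept nuclei lay in endothelial nuclei, and 78.35% in the 9 types together.

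Mfsd2a, on chromosome 4 from 122946850 to 122961188, encodes a lipid carrier that takes up lysophosphatidylcholine and is known for holding down vesicle transport across the barrier. It stood at 176 ± 33.6 CPM in endothelial nuclei. OPC had 74.6 ± 14.1 CPM and astrocytes 57.6 ± 16.3 CPM, ranges that overlapped each other, while the other 6 types had 1.13 to 4.50 CPM. The highest OPC library reached 91.3 CPM and the lowest endothelial library 132.6 CPM. Endothelial nuclei exceeded OPC by 0.83 (SE 0.17, adjusted p = 3.2e-05) and astrocytes by 1.16 (SE 0.17, adjusted p = 1.51e-08) on the log2 scale, edgeR quasi-likelihood with Benjamini-Hochberg adjustment. Both calls were lost in nuclei with at least 1000 genes and no more than 1% mitochondrial UMIs. That filter left 127 endothelial nuclei, and 6 of 8 libraries had enough of them to enter the fit. There the log2 difference was -0.04 against OPC (adjusted p = 0.949) and 0.19 against astrocytes (adjusted p = 0.671) in the same test. Of the Mfsd2a UMIs of all kept nuclei, 5.29% lay in endothelial nuclei and 72.5% in the 9 types together.

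Slco1a4 and Slco1c1 encode organic anion carriers of 1 family, OATP1A4 and OATP1C1, the latter known as a carrier of thyroxine. Slco1a4, on chromosome 6 from 141805440 to 141856199, stood at 2708 ± 418 CPM in endothelial nuclei, from 1984 to 3259 CPM, with 62.7 ± 14.9 CPM in fibroblasts and 32.8 ± 19.8 CPM in mural nuclei. The 6 glial and neuronal types were at 0.937 to 2.998 CPM, and the log2 difference was 9.79 (SE 0.14) against astrocytes. Slco1c1, on chromosome 6 from 141524368 to 141570177, stood at 1498 ± 309 CPM in endothelial nuclei and at 589 ± 172 CPM in astrocytes. In astrocytes Slco1c1 was thus at 39.3% of its own endothelial level and Slco1a4 at 0.0739%. The endothelial range of Slco1c1, 972 to 1841 CPM, lay just above the astrocyte range, 403 to 913 CPM, and the log2 difference was 0.83 (SE 0.11, adjusted p = 5.21e-10, edgeR quasi-likelihood with Benjamini-Hochberg adjustment). That call too was lost with the stricter filter on nuclei, where the log2 difference was 0.16 (adjusted p = 0.44). Over the kept nuclei, 8.58% of Slco1c1 UMIs and 59.6% of Slco1a4 UMIs lay in endothelial nuclei. The 9 types together held 74.7% of the Slco1c1 and 77.3% of the Slco1a4 UMIs. Every other type had a mean of at most 21.7 CPM of Slco1c1. Of the Slco1a4 transcript sequence, 0.796% of 90-base stretches also occur in Slco1a1, Slco1a5, Slco1a6 or Gm6614, and none of the Slco1c1 stretches occurs in another gene.

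Abcb1a, on chromosome 5 from 8660077 to 8748575, encodes the drug efflux pump P-glycoprotein, and Abcg2, on chromosome 6 from 58584523 to 58695676, encodes the efflux pump BCRP. Abcb1a stood at 697 ± 196 CPM in endothelial nuclei, from 379 to 927 CPM, and at 99.9 ± 40.8 CPM in fibroblasts. Its other 7 levels were 0.904 to 8.13 CPM, with 0 UMIs in 5 of 8 mural and 5 of 8 microglial sums. The highest of them, in mural nuclei, rested on 6 UMIs, 4 of these in WT female 2 (40.1 CPM). With the stricter gate the mural level was 22.6 ± 29.4 CPM (8 UMIs). Abcg2 stood at 833 ± 180 CPM in endothelial nuclei, and then at 152 ± 33.9 in fibroblasts, 73.6 ± 3.20 in microglia, 47.3 ± 15.3 in OPC and 36.5 ± 23.8 CPM in mural nuclei. Its microglial values were close together, from 69.1 to 80.2 CPM over the 8 libraries, and did not overlap those of fibroblasts. Astrocytes had the lowest Abcg2 level, 3.95 ± 1.04 CPM. Against fibroblasts, endothelial nuclei were higher by 2.56 (SE 0.18) for Abcb1a and 2.21 (SE 0.11) for Abcg2 on the log2 scale. These fibroblast levels depended on the gate. With the stricter gate of 6 fibroblast markers they were 25.1 ± 21.5 CPM for Abcb1a (22 UMIs) and 83.5 ± 42.7 CPM for Abcg2 (75 UMIs), and the log2 differences were 4.65 and 3.18. Of the 784 fibroblast nuclei, 199 lay at the gate's minimum and 286 also passed the stricter gate. Abcb1a counts are uncertain in part, since 10.5% of the 90-base stretches of its transcript also occur in Abcb1b or Abcb4.

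Cldn5, on chromosome 16 from 18776847 to 18778262, and Ocln, on chromosome 13 from 100496507 to 100552718, encode the junction proteins claudin-5 and occludin. Cldn5 stood at 717 ± 162 CPM in endothelial nuclei, from 427 to 908 CPM. Outside them its mean was 0.145 to 4.36 CPM, and the mural mean rested on 3 UMIs of 1 library (0 UMIs in the other 7). With classes taken by the highest mean marker level, mural sums held 51.5 ± 59.9 CPM of Cldn5 (34 UMIs), 6.06% of its endothelial level there, and the log2 difference was 3.88 in place of 6.93. Under that setting Slco1a4 was at 163 ± 116, Slc2a1 at 84.4 ± 75.0 and Abcb1a at 50.3 ± 32.4 CPM in mural sums. Those sums, of 372 in place of 282 nuclei, held 717 to 2705 CPM of the 18 endothelial markers (median 1426), against 604 to 1089 CPM (median 824) with the main gate, and their part in these levels was not tested. In excitatory neurons, with the deepest sums, 92 Cldn5 UMIs gave 0.230 ± 0.0994 CPM, or 0.032% of the endothelial level. Ocln stood at 261 ± 79.1 CPM in endothelial nuclei and 29.5 ± 13.8 CPM in fibroblasts, a log2 difference of 2.85 (SE 0.25). In the other 7 types it was 1.59 to 6.06 CPM with overlapping ranges, and 1451 of its 2481 UMIs over all kept nuclei came from excitatory neurons, at 3.71 ± 0.645 CPM. Of all Cldn5 UMIs 60.3% lay in endothelial nuclei, against 7.90% of all Ocln UMIs. The 9 types together held 74.1% of the Cldn5 and 77.9% of the Ocln UMIs, and the rest lay in nuclei outside these types.

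Levels outside endothelial nuclei were also expressed as a percentage of the endothelial level of the same gene. In excitatory neurons the percentages were 0.032 for Cldn5, 0.0346 for Slco1a4, 0.138 for Abcb1a, 0.194 for Slco1c1 and 0.394 for Slc2a1. They were 0.645 for Mfsd2a, 0.834 for Slc7a5, 1.42 for Ocln, 1.56 for Abcg2 and 1.96 for Slc16a1. The lowest percentages belonged to Cldn5 and Slco1a4. In fibroblasts the percentages were 18.2 for Abcg2, 14.3 for Abcb1a and 11.3 for Ocln, against 0.121 for Cldn5 from 2 UMIs and 1.06 for Slc2a1. This order held for the main gate: with the stricter gate the percentages were 11.3 for Ocln, 8.77 for Abcg2 and 3.33 for Abcb1a. Free RNA was not measured, and its part in these levels was not tested.

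Single nuclei were sparse but mostly held several of the genes. Slco1a4 was detected in 85.3 ± 6.78% of endothelial nuclei per library, Slco1c1 in 78.5 ± 6.61%, Slc2a1 in 75.1 ± 6.28%, Cldn5 in 50.1 ± 7.59% and Mfsd2a in 24.5 ± 4.95% (mean ± SD, n = 8; median depth 1622 UMIs). In excitatory neurons, the type taken as background, with a median of 9381 UMIs, the shares were 0.992%, 2.84%, 5.35%, 0.240% and 1.123% for these 5 genes in turn. With every nucleus thinned to 1000 UMIs, which left out 42 endothelial nuclei and 40 excitatory nuclei as shallower, the endothelial shares were 81.1 ± 7.67% for Slco1a4, 66.8 ± 3.71% for Slco1c1, 66.4 ± 12.1% for Slc2a1, 41.3 ± 6.82% for Cldn5 and 18.4 ± 7.65% for Mfsd2a. The thinned excitatory shares of the 10 genes were 0.0184% to 1.21%. Among astrocytes, Slco1c1 was detected in 71.0 ± 7.97% of nuclei, and in 40.6 ± 7.70% after thinning. Mfsd2a was detected in 19.7 ± 3.73% of OPC and 14.7 ± 3.40% of astrocytes, and in 6.96 ± 1.57% and 5.76 ± 1.37% after thinning. A median of 6 of the 10 genes was detected per endothelial nucleus, 283 of 401 nuclei (70.6%) had 5 or more, and 2 nuclei had none.

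Nuclei of the fibroblast gate had UMIs of both pumps, of Ocln and of Slco1a4, and Abcb1a and Slco1a4 were rarely found in the same nucleus. The 105 fibroblast nuclei with an Abcb1a UMI included 67 with Abcg2 (63.8%), against 19.7% of the nuclei without Abcb1a. Ocln was found in 15.2% of them and in 5.74% of the rest. Slco1a4 went the other way: 1 of the 105 nuclei had it (0.952%), against 14.1% of the fibroblast nuclei without Abcb1a. In endothelial nuclei Slco1a4 was found in 90.2% of nuclei with Abcb1a and 74.1% of those without. Fibroblast nuclei with Abcb1a were deeper than those without, with a median of 3391 against 2334 UMIs. They had a median of 3 excitatory and 3 astrocyte markers detected, against 2 and 1 without Abcb1a and 3 and 1 with Slco1a4. Fibroblast sums held 892 to 1258 CPM of the 16 astrocyte markers and 838 to 1304 CPM of the 16 mural markers. The part of these other markers was not tested. Of the nuclei with Abcb1a, 12 of 105 (11.4%) passed the stricter gate, against 40.4% of those without Abcb1a and 47.4% of the 97 with Slco1a4, and 51 of the 105 lay at the gate's minimum. Among the 286 nuclei that passed both gates, 12 had Abcb1a, 46 had Slco1a4 and 0 had both, counts too small to show whether the genes part within that class. The nuclei of all 8 libraries were pooled here, so these shares are descriptions without a test.

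**Figure D2:**
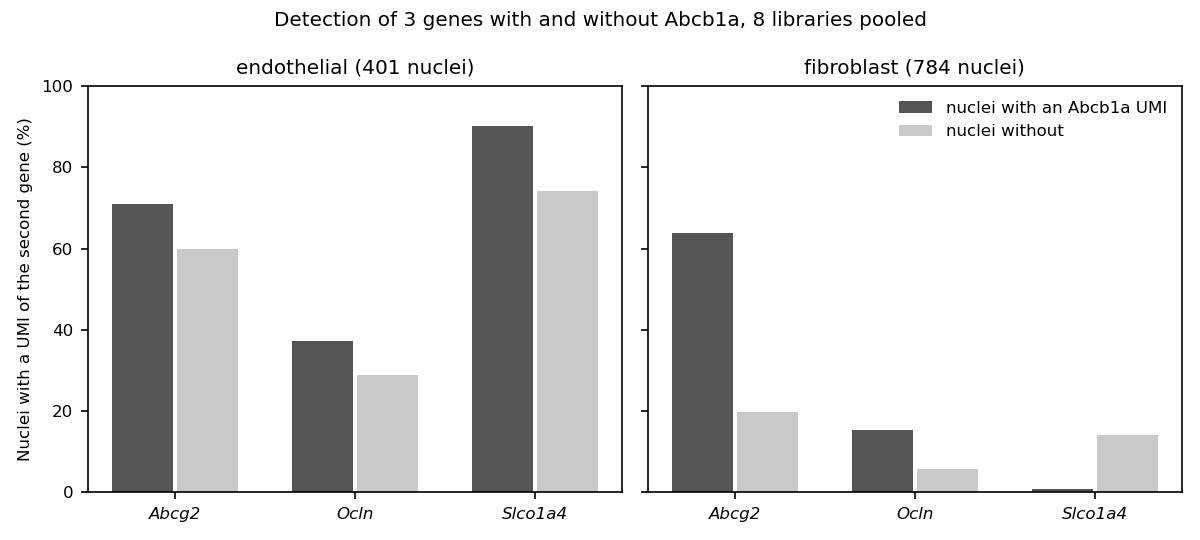
Percent of nuclei with at least 1 UMI of Abcg2, Ocln or Slco1a4 among nuclei with (dark) and without (light) an Abcb1a UMI, 8 libraries pooled, for 401 endothelial and 784 fibroblast nuclei. In the fibroblast gate Slco1a4 is nearly missing from nuclei with Abcb1a (0.952%) while Abcg2 is more frequent there (63.8%).

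The genes closest to each member were found by the Pearson correlation of log2 CPM over the 72 sums of library and cell type. These CPM used the scaling factors of the fit, and 2 counts were added on average, in proportion to the depth of each sum. The 13442 genes ranked passed the count filter and mark no type. The 10 members were left out of the ranking, so they were not compared with each other. The 72 sums share 8 libraries and differ in depth, so each r describes these sums only. For Cldn5 the closest genes were Icam2 (r = 0.94), an endothelial adhesion molecule, and Ctla2a (r = 0.92). Slco1a4 was closest to Pltp (r = 0.94), a phospholipid transfer protein, and Gpcpd1 (r = 0.89). Slco1c1 was closest to S1pr1 (r = 0.95), a sphingosine-1-phosphate receptor at 282 CPM in endothelial and 194 CPM in astrocyte sums, and to Myo10 (r = 0.86), which was also closest to Mfsd2a (r = 0.82). Slc2a1 was closest to Dipk2b and Slc38a5 (both r = 0.84), Abcb1a to Hmcn1 (r = 0.89) and Atp10a (r = 0.88), and Ocln to Hmcn1 (r = 0.85) and Abcc6 (r = 0.85). The closest genes were Ifnar2 and H2-D1 for Abcg2 (r = 0.82 and 0.80), Fgd5 and Spock2 for Slc7a5 (r = 0.81 and 0.79) and Ddah1 besides Myo10 for Mfsd2a (r = 0.75). Slc16a1 was closest to the haemoglobin genes Hba-a2 and Hbb-bs (both r = 0.75).

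Other genes of the barrier were examined in 5 lists, 97 genes in all, of which 87 were tested between cell types. Of all 13585 genes tested, 4.23% were called higher in endothelial nuclei than in all 8 types. Among junction partners, proteins that anchor or accompany claudins and occludin, 14 of 17 genes were tested and 3 were higher in endothelial nuclei than in all 8 types: Ctnna1, Ctnnb1 and Lsr. With the stricter filter on nuclei Ctnna1 exceeded 5 types. Tjp1, the scaffold ZO-1, stood at 1461 ± 285 CPM in endothelial nuclei and 853 ± 123 CPM in oligodendrocytes and was called higher against 7 types. Afdn had 388 ± 92.3 CPM, below fibroblasts at 544 ± 102 CPM. Among efflux pumps 2 of 10 tested genes exceeded all 8 types, Abcc4 (592 ± 106 CPM, next highest 82.5 ± 38.1 in fibroblasts) and Abcc6. Abca1, the cholesterol exporter, stood at 102 ± 20.5 CPM against 238 ± 31.9 CPM in microglia and exceeded 4 types (2 with the stricter filter on nuclei), and Abcc5 was called lower than 7 types.

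Of the solute carriers 25 of 27 were tested and 11 exceeded all 8 types, among them the amino acid carriers Slc7a1 and Slc38a5 and Slc3a2, the partner chain of Slc7a5. Slc6a6, the taurine carrier, had 791 ± 230 CPM against 158 ± 11.3 CPM in oligodendrocytes, and Slc7a1 469 ± 91.1 CPM against 55.0 ± 52.4 CPM in mural nuclei. Slc39a10, a zinc carrier, had 667 ± 124 CPM. Of the receptors and vesicle genes 9 of 13 tested exceeded all 8 types, with Bsg, the partner of Slc16a1 in the membrane, at 3030 ± 1517 CPM, Igf1r at 2916 ± 572 CPM and the transferrin receptor Tfrc at 636 ± 246 CPM. Among Wnt and barrier regulators 9 of 25 tested genes exceeded all 8 types. The Wnt effector Lef1 had 797 ± 231 CPM against 123 ± 20.9 CPM in fibroblasts, the Wnt target Apcdd1 521 ± 184 against 152 ± 22.0 CPM in fibroblasts, and the transcription factor Sox17 160 ± 80.6 CPM against 0.175 CPM or less in every other type. Other genes of this list went the opposite way. Of its 25 tested genes 10 were called lower in endothelial nuclei than in astrocytes, 6 lower than in OPC and 5 lower than in fibroblasts, calls that 26.7%, 27.1% and 20.8% of all genes tested received. Among them, named after their values were seen, the Wnt effector Tcf7l2 had 108 ± 31.6 CPM in endothelial nuclei against 333 ± 52.1 CPM in astrocytes, and the ligand genes Ndp and Wnt7a had 0 UMIs in endothelial sums against 22.7 ± 6.57 and 16.2 ± 7.77 CPM in astrocytes. The call of Lrp6 came with TMM scaling, and its mean levels were 126 CPM in endothelial nuclei and 124 CPM in astrocytes. Of the other lists, 6 of 10 efflux pumps, 3 of 25 solute carriers, 3 of 13 receptors and vesicle genes and 1 of 14 junction partners were called lower than in astrocytes.

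Between genotypes, none of the 10 genes passed the test in endothelial nuclei. The test is drawn between libraries as labelled, since Chd8 RNA did not separate them. No gene of 1753 tested was called (0.0%; edgeR quasi-likelihood with sex as covariate, Benjamini-Hochberg), 56 genes (3.19%) had an unadjusted p under 0.05, 24 of them (1.37%) lower in Chd8het, and DESeq2 called 0 genes with 27 at an unadjusted p under 0.05. All 10 genes were tested, and 9 had a lower fitted level in Chd8het libraries, as did 52.3% of all genes tested. Their median log2 change was -0.23, against -0.01 over all genes tested. With a term for each pair of equal sex and replicate number in place of sex, 4 genes (0.228%) were called, all lower in Chd8het: Erbb4 and the haemoglobin genes Hbb-bs, Hba-a1 and Hba-a2, each at an adjusted p of 0.0446. No member was among them. In the fit with sex, leaving out Chd8het female 2 gave 4 calls and leaving out WT male 2 gave 1. Erbb4, a receptor of many interneurons, had 2936 CPM in the endothelial sum of WT male 1 and 110.5 to 1264 CPM in the other 7.

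Of 11 marker lists summed in the endothelial sums, 1 did not overlap between genotypes, which was not tested (of the 1753 genes tested one by one, 1.71% did not overlap, in either direction). The 13 excitatory markers together made 1211 to 1585 CPM in WT and 1620 to 2205 CPM in Chd8het endothelial sums, with no overlap. In excitatory sums themselves they made 4558 to 5398 CPM. The 12 inhibitory markers made 338 to 1061 CPM in WT and 278 to 350 CPM in Chd8het, and the 18 endothelial markers 11900 to 18250 and 11060 to 14940 CPM, both with overlap. The 16 mural markers made 417 to 1222 and 561 to 1160 CPM, and the 16 oligodendrocyte markers 723 to 1050 and 661 to 1121 CPM. Their part in the genotype values below was not tested.

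**Figure D3:**
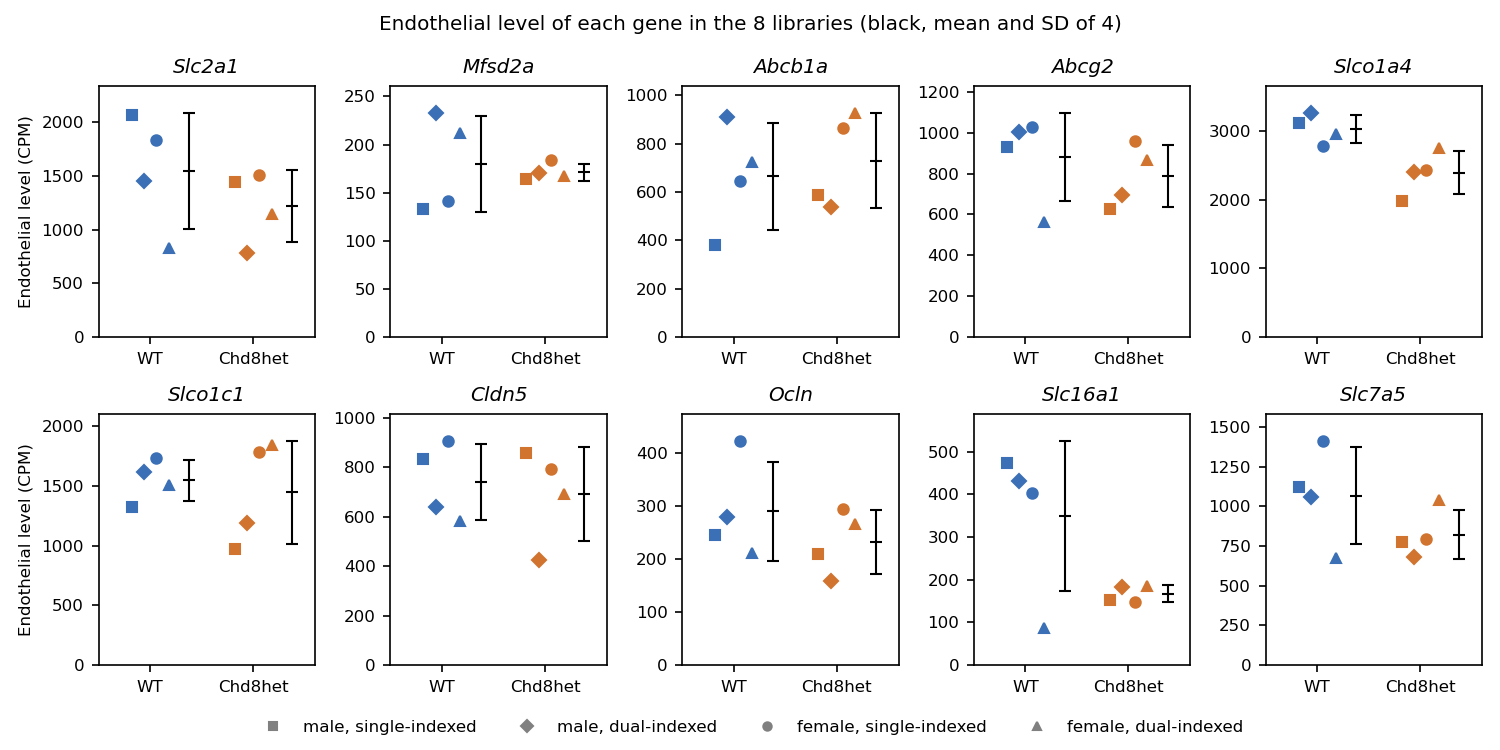
Endothelial level (CPM) of each gene in the 8 libraries, by genotype, with symbols for sex and index type and the mean ± SD of 4 libraries in black. For Slc16a1, 3 WT libraries lie between 404 and 474 CPM, WT female 2 at 87.7 CPM lies below all 4 Chd8het libraries, and for Slco1a4 the groups do not overlap.

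Slc16a1 had the smallest unadjusted p of the 10 genes. In WT endothelial sums it stood at 474 CPM (25 UMIs) in male 1, 431 (37 UMIs) in male 2, 404 (20 UMIs) in female 1 and 87.7 (12 UMIs) in female 2. In Chd8het sums it stood at 153 CPM (27 UMIs) in male 1, 183 (15 UMIs) in male 2, 147 (8 UMIs) in female 1 and 185 (30 UMIs) in female 2. The 4 Chd8het libraries were close together and below 3 of the 4 WT libraries, but WT female 2 was lowest of all 8, so the groups overlapped. Over the 8 libraries the 174 Slc16a1 UMIs lay in 94 of 401 endothelial nuclei, and 10 nuclei held 35.6% of them. Few nuclei thus weigh on these sums. The log2 change was -0.93 (SE 0.41, unadjusted p 0.0358, adjusted p 1), and -0.81 with the pair term (adjusted p 0.932), both edgeR quasi-likelihood with Benjamini-Hochberg. With 1 library left out in turn the change ran from -0.61 without WT female 1 (unadjusted p 0.158) to -1.38 without WT female 2 (unadjusted p 0.000279, adjusted p 0.465), edgeR with Benjamini-Hochberg adjustment. Without WT male 1, WT male 2, Chd8het male 1 or Chd8het male 2 the unadjusted p was 0.0768 to 0.108. With the stricter gate the change was -0.68 (unadjusted p 0.114), and with nuclei thinned to 1000 UMIs it was -0.45 (unadjusted p 0.298).

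Haemoglobin genes, which mark red blood cells, moved in part with Slc16a1. In WT endothelial sums Hbb-bs stood at 5304 CPM in male 1, 3957 in male 2, 242 in female 1 and 935 in female 2. In Chd8het sums it stood at 899 CPM in male 1, 341 in male 2, 203 in female 1 and 791 in female 2. The 2 WT male libraries were high in both genes, while WT female 1 was high in Slc16a1 and low in Hbb-bs. The part of blood RNA in the Slc16a1 values was not tested.

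Slco1a4 showed no overlap between the groups. In WT endothelial sums it stood at 3107 CPM in male 1, 3259 in male 2, 2785 in female 1 and 2951 in female 2. In Chd8het sums it stood at 1984 CPM in male 1, 2401 in male 2, 2430 in female 1 and 2742 in female 2. Every Chd8het library lay below every WT library, which held for 0.742% of the 1753 genes, and for either direction for 1.71%. The log2 change was -0.35 (SE 0.24, unadjusted p 0.166, adjusted p 1, edgeR quasi-likelihood with Benjamini-Hochberg), so the difference was not distinguished from the spread that the fit gives genes of this level. The change with 1 library left out in turn ran from -0.40 to -0.29. With nuclei of at least 1000 genes and at most 1% mitochondrial UMIs it was -0.71 (unadjusted p 0.175, adjusted p 0.947), also not called.

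The other 8 genes overlapped between genotypes. Slc2a1 was at 2065, 1455, 1837 and 833 CPM in WT and 1442, 780.0, 1510 and 1149 CPM in Chd8het libraries (male 1, male 2, female 1, female 2), a log2 change of -0.32 (SE 0.33). Its mean was 1713 CPM in single-indexed and 1054 CPM in dual-indexed sums, a wider split than 1547 and 1220 CPM in WT and Chd8het. Not all genes went this way with index type: Abcb1a had 619.5 CPM in single-indexed and 773 CPM in dual-indexed sums. The part of index type in these levels was not tested. Slc7a5 changed by -0.37 (SE 0.30), Ocln by -0.29 (SE 0.31), Abcg2 by -0.17 (SE 0.29), Slco1c1 by -0.14 (SE 0.26), Mfsd2a by -0.12 (SE 0.30) and Cldn5 by -0.07 (SE 0.31) on the log2 scale. Abcb1a was the exception in direction, with 0.10 (SE 0.29), from 664 ± 220 CPM in WT to 729 ± 196 CPM in Chd8het. None of these changes passed the test, and those of Mfsd2a, Abcb1a, Slco1c1, Cldn5 and Ocln changed sign under at least 1 other setting. In simulated data of this design the fit called 44 of the 87 tested genes that were changed 2-fold (50.6%) and 72 of the 72 that were changed 4-fold. There 100 genes were changed 2-fold and 100 genes 4-fold at once, and all genes had the same spread. With many changed genes the adjustment is milder than here, where no gene was called. These shares therefore do not give the chance of calling a 2-fold change in the data.

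**Figure D4:**
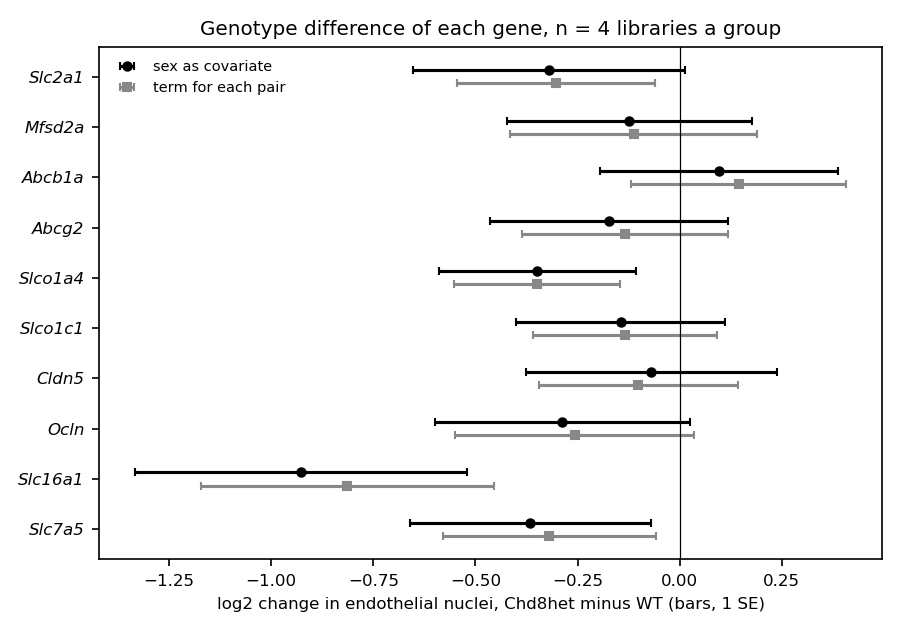
Fitted log2 change of each gene in endothelial nuclei, Chd8het minus WT, with 1 SE, for the fit with sex (black circles) and with a term for each pair (grey squares), n = 4 libraries a group. Slc16a1 lies farthest from 0 at -0.93 and -0.81, and Abcb1a alone lies above 0.

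A difference of the genotype change between the sexes was not detected. In the interaction of sex and genotype 0 of 1753 genes were called and 49 had an unadjusted p under 0.05 (edgeR quasi-likelihood). The smallest unadjusted p among the 10 genes in this test was 0.20, for Slc16a1 (male minus female change -1.09, SE 0.81). The endothelial share of kept nuclei was 0.449 ± 0.195% in WT libraries and 0.604 ± 0.303% in libraries labelled Chd8het (mean ± SD, n = 4 each). The difference did not pass a two-sided exact permutation test (p = 0.4, adjusted p = 0.943 over 3 cell types, smallest possible p 0.0286). By index type the endothelial share averaged 0.396% with single and 0.657% with dual indexes, and the genotype difference was 0.228 and 0.0821 percentage points within them. Mural nuclei made 0.365 ± 0.160% and 0.370 ± 0.125%, and fibroblasts 1.04 ± 0.113% and 0.990 ± 0.159%, in WT and Chd8het. In sums over all kept nuclei 9 of the 10 genes had a higher fitted level in Chd8het (50.2% of all genes did), and none was called. These sums mix all types, and endothelial nuclei held 5.02% (Slc16a1) to 60.3% (Cldn5) of a gene's UMIs. The number of nuclei of a type and their RNA per nucleus both enter them. Cldn5 stood at 1.36 ± 0.176 CPM in WT and 1.94 ± 0.835 CPM in Chd8het. Its Chd8het values were 2.99 CPM in male 1 and 2.23 in female 2, with 80 and 81 endothelial nuclei. They were 1.26 CPM in male 2 and 1.28 in female 1, with 45 and 30. The part of these numbers of nuclei was not tested.

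Outside endothelial nuclei no member was called between genotypes in any of the 8 types (0.0% of genes called in each by edgeR). Genes at an unadjusted p under 0.05 ran from 20 of 1016 tested in mural to 324 of 11199 in astrocyte sums. The number of the 10 genes with enough counts to test was 10 in excitatory neurons, 6 in inhibitory neurons, 5 in astrocytes, 4 in oligodendrocytes, 3 each in fibroblasts, OPC and microglia, and 0 in mural nuclei. With the pair term 2 genes were called in fibroblasts and 1 in astrocytes, none of them among the 10. Slco1c1 in astrocytes stood at 573 ± 144 CPM in WT and 605 ± 218 CPM in Chd8het, a log2 change of 0.06 (SE 0.24). Mfsd2a in OPC stood at 68.1 ± 13.3 and 81.1 ± 13.2 CPM, a change of 0.24 (SE 0.18). For Ocln, WT excitatory sums held 3.95 CPM in male 1, 4.39 in male 2, 4.004 in female 1 and 4.35 in female 2. Chd8het excitatory sums held 2.86 CPM of Ocln in male 1, 3.85 in male 2, 2.63 in female 1 and 3.67 in female 2. Every Chd8het library lay below every WT library, which held for 0.378% of the genes tested there, and the log2 change was -0.39 (SE 0.16, unadjusted p 0.0407, adjusted p 1, edgeR quasi-likelihood with Benjamini-Hochberg, where 1.51% of genes had such an unadjusted p).

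Of the 5 lists no gene was called between genotypes in endothelial nuclei. Of the solute carriers 11 of 13 tested were lower in Chd8het in the fit, with a median log2 change of -0.18. The counts were 6 of 9 junction partners (median -0.26), 5 of 6 receptors and vesicle genes (-0.23), 7 of 9 Wnt and barrier regulators (-0.22) and 0 of 1 efflux pumps. Over the 5 lists 29 of 38 tested genes (76.3%) were lower, against 52.3% of all genes tested, whose median was -0.01. The lists were not tested as sets. Of the 38 genes 1 (2.63%) had an unadjusted p under 0.05, against 3.19% of all genes tested. It was Tfrc, with 771 ± 245 CPM in WT and 500.4 ± 179 CPM in Chd8het and a change of -0.67 (SE 0.30, unadjusted p 0.0376, adjusted p 1, edgeR quasi-likelihood with Benjamini-Hochberg). Sox17 changed by -0.68 (SE 0.46), Ctnna1 by -0.38 (SE 0.28), Slc22a8 by -0.38 (SE 0.31) and Foxo1 by -0.44 (SE 0.34), none of which was called.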

How the data were processed

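Per the labels, nuclei of 8 mouse cortices were sequenced with 10x 3' v3 chemistry, and the deposited matrices hold UMI counts per gene and barcode that the authors left unnormalised. STAR 2.7.9a, STARsolo, Cell Ranger and mm10 are named per the submitters' processing notes. Annotation version, strandedness and intron counting are not given in the sources used here. Per library, 69.5 M to 98.1 M UMIs (M, 1000000) were deposited.

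Barcodes with at least 500 genes and at most 5% mitochondrial UMIs were kept (82168 of 97772), and 4513 predicted doublets (5.49%, Scrublet in scanpy 1.11.5) were removed. A nucleus was given a type when it passed the marker gate of 1 type only. The gate minima were set after marker count histograms were seen, and 43 endothelial nuclei lay at the minimum and 33 just below it (199 and 183 for fibroblasts). The members and lists were chosen with earlier results of these data known. Counts were summed per library and type where at least 10 nuclei were present. CPM were computed here from the sums. Sums were tested with edgeR 4.0.16 (R 4.3.3; quasi-likelihood F test, TMM, minimum count of 10, Benjamini-Hochberg), two-sided, with library as block between types and sex as covariate between genotypes. Between genotypes the P-values measure the spread between mice, 1 library each. Between types the library block takes out level differences between mice, and the P-values measure the spread of the sums that remains. DESeq2 1.42.0, other scaling, filters, gates, thinning to 1000 UMIs and leaving out each library were alternatives. Named genes were the 10 members, 3 of each list by endothelial level and 3 by genotype p, and 2 closest genes per member.

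Same-numbered libraries of 1 sex deviated together over all nuclei (r 0.591, 0.599, 0.578 and 0.373), so they were also fitted as pairs, although WT female 2 correlated better with another Chd8het library (0.459). The number also gives the index type, and which libraries are litter pairs is not stated. As a check for duplicate deposits only, counts of same-sex replicates, each 1 single-indexed and 1 dual-indexed library, were compared (chi-square per degree of freedom 2.12 to 3.48), and all were counted separately. Tested on simulated endothelial counts between genotypes (1708 genes), the fit recovered 44 of 100 genes changed 2-fold (87 passed the filter) and 72 of 100 changed 4-fold (72 passed), with 2 false among 118 calls. Against mural sums (3691 genes) it recovered 23 and 74 of 100. All genes of a simulation were given the same spread, which the data need not share. Many genes were changed at once in it, which makes the adjustment milder than in data with few changed genes.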

Additional observations from a re-analysis of the deposited data

Results flagged for a closer look

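The Slc2a1 level in inhibitory neurons of WT male 1 was 4.83 CPM, while the other 3 WT libraries lay between 5.31 and 5.34 CPM. Its gap to the nearest of them was 0.943 of the range of the 4 libraries, above Dixon's critical value for 4 samples. It was 1 of 82 groups examined in this way, and chance flags about 1 in 20 groups.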

How the results depend on the processing

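The number of the 10 genes called higher in endothelial nuclei stayed within 1.5 times against each type under the 19 other settings, and calls of members were lost only with nuclei of at least 1000 genes and at most 1% mitochondrial UMIs. There Mfsd2a differed by -0.0366 from OPC (reversed) and by 0.19 from astrocytes, and Slco1c1 by 0.16 from astrocytes, with no call. The cause was not tested, and that filter left 127 endothelial nuclei. Genes called between genotypes numbered 4 with no count filter, 4 with the replicate block and 0 to 4 with 1 library left out. The block changed no member's call, and in endothelial sums the same-number correlations were 0.231, 0.0904, 0.229 and 0.161, with male 2 and female 2 correlating better with another library.

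These genotype changes of single genes turned sign without passing the test, and the cause was not tested. By the highest mean marker level, Mfsd2a was 0.00426 and Slco1c1 0.0386. With thinning, Abcb1a was -0.12, Slco1c1 0.0657, Ocln 0.0277 and Abcc4 -0.0419. With the stricter filter on nuclei, Abcb1a was -0.30 and Abcc4 -0.56. With the stricter gate Cldn5 was 0.14. Abcc4 was -0.00169 with DESeq2 size factors, -0.00227 with DESeq2, -0.00366 with the looser gate and -0.0390 with doublets kept. With 1 library left out in turn, Mfsd2a ran from -0.228 to 0.0368, Abcb1a from -0.0379 to 0.434, Cldn5 from -0.329 to 0.138, Abcc4 from -0.116 to 0.137 and Bsg from -0.682 to 0.178. The genotype difference of mural shares was -0.0300 percentage points with the stricter gate and -0.0622 to 0.0596 with 1 library left out, and that of fibroblast shares 0.0196 and -0.114 to 0.0147. The endothelial share difference kept its sign in 12 of 12 settings. Endothelial sums held 49546 to 176894 UMIs, and the parts of depth and of the spread between mice in the genotype comparison were not told apart.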
